A study of Arabidopsis thaliana with 4 samples.

Results

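The subject is a row of 7 neighbouring genes on chromosome 1 of Arabidopsis thaliana, AT1G70830 to AT1G70890, which encode major latex protein-like (MLP) proteins. They were chosen as the tandem cluster around AT1G70880, which itself had been selected on its lower signal in roots of the nlp7-1 mutant. The members were thus chosen by the log2 change of AT1G70880 and by position. Of the 7 genes, 2 had a probe set that names a single gene, AT1G70870 and AT1G70880. The other 5 are MLP28 (AT1G70830), MLP31 (AT1G70840), MLP34 (AT1G70850), AT1G70860 and MLP43 (AT1G70890). They had no such probe set in the annotation used, so no value is given for them. Besides controls there were 22746 probe sets on the array, of which 13436 could be placed at 13286 genes.

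Major latex proteins take their name from the latex of opium poppy, where they were first found. They share the fold of Bet v I, the major birch pollen allergen, a cup-shaped protein with a hydrophobic cavity that can hold small ligands. The same fold occurs in the PYR/PYL abscisic acid receptors, and in cucurbits MLP proteins carry hydrophobic compounds. NLP7 (NIN-LIKE PROTEIN 7), the gene affected in the mutant, encodes a transcription factor of nitrate signalling.

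Roots were cut where root meets hypocotyl at 5 dai, as the labels give the age, from untreated plants kept in long days of 16 h at 22 °C on plates of 1x MS agar. One group was wild type and the other nlp7-1, both in the Col-0 background, with 2 biological replicates of about 60 roots each and 1 Affymetrix ATH1 array per replicate. The labels name the allele but do not describe its lesion, and 0 probe sets named NLP7, so the mutated gene could not check the genotype labels. With 4 arrays, their number limits the precision of every value.

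The values are MAS5 signals, brightness per probe set on a linear scale, already brought to a common level on all 4 arrays. The median signal was between 97.5 and 100.8. Across the 13648 probe sets kept after a filter at a signal of 59.4, the wild-type pair correlated at r = 0.978 and the nlp7-1 pair at r = 0.986. Pairs of different genotype had r of 0.961 to 0.977, so each array was closest to that of its own genotype, by a narrow margin for wild type replicate 1. The 25S rRNA control was lower in both wild-type samples (5005 and 5318) than in both mutant samples (6180 and 6248). Of 12 markers of root cell types, 2 had a named probe set. These were the root hair expansins EXPA7 and EXPA18, whose summed signal was 1009 and 677 in wild type, against 1166 and 915 in nlp7-1, with overlap.

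AT1G70880 was the member with a clear signal, and it was lower in the mutant. The wild-type samples gave 344 and 463, whereas the nlp7-1 samples gave 90.1 and 148. Both mutant values lay below both wild-type values, as in 20.9% of all kept probe sets. The means were 403 ± 84 against 119 ± 41 (SD, n = 2), a log2 change of -1.79 ± 0.26 (SE of the fit) or 3.46-fold lower. Since the gene was chosen for this difference, it is given as a description with no test. In whole roots, fewer cells that express the gene and less of its RNA per cell cannot be told apart.

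**Figure D1:**
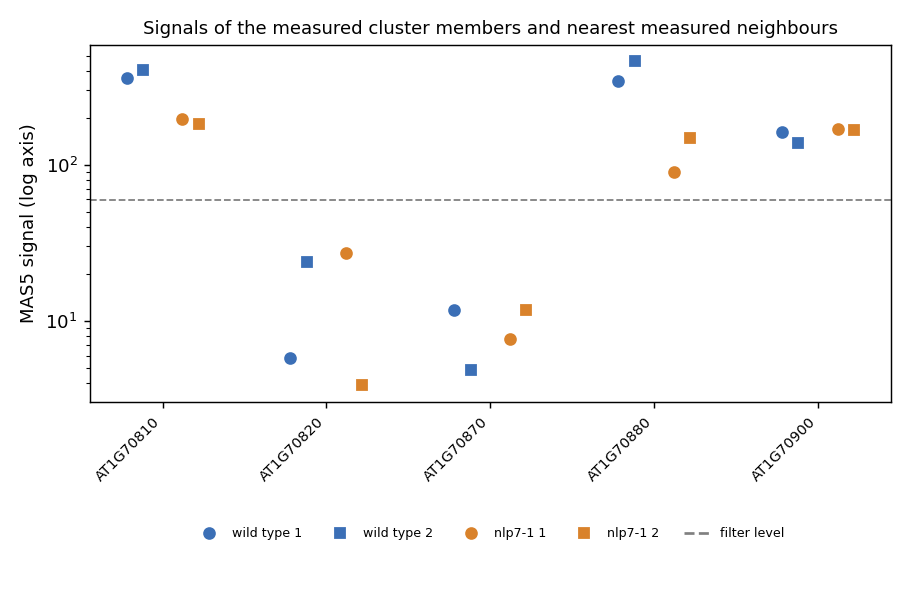
MAS5 signal (log axis) of the 2 measured cluster members, AT1G70870 and AT1G70880, and of the nearest measured genes on each side, with a point for each of the 4 samples. The dashed line is the filter level of 59.4. AT1G70880 has mutant points of 90.1 and 148 under wild-type points of 344 and 463, while the points of AT1G70870 and AT1G70820 lie under the line and overlap between genotypes.

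The size of the decrease depended on which samples were paired. It was smallest between wild type replicate 1 and nlp7-1 replicate 2, at 2.33-fold, and largest between wild type replicate 2 and nlp7-1 replicate 1, at 5.14-fold. The other pairings gave 3.14-fold and 3.82-fold, so all 4 had the same direction, as groups that do not overlap must. On each array the signal stood at the 78.5 and 83.7 percentile of all probe sets in wild type and at the 47.9 and 58.8 percentile in nlp7-1. The mutant signals were therefore near the middle of the array.

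Replicates of AT1G70880 differed more than those of most probe sets. Its wild-type replicates lay 0.43 log2 units apart and its nlp7-1 replicates 0.71. For the 3706 probe sets whose mean lay within 0.5 log2 units of its own, the median difference was 0.17 in wild type and 0.13 in nlp7-1. Among kept probe sets, 13.8% had a difference at least as large in wild type and 1.48% in nlp7-1. In both genotypes the sample numbered 2 had the higher signal. The actin 3' to 5' signal ratio, a gauge of RNA quality, was also higher in that sample. It was 1.97 and 2.75 in wild type, against 2.23 and 2.49 in nlp7-1. Its part in the replicate differences of AT1G70880 was not tested. As a description of the gene that was picked, 13 of the 13648 kept probe sets, itself included, had a decrease at least as large.

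AT1G70870, the neighbour just before AT1G70880, gave signals near the bottom of the array. They were 11.7 and 4.82 in wild type, against 7.62 and 11.7 in nlp7-1, and the genotypes overlapped. The means were 8.25 ± 4.85 and 9.67 ± 2.90 (SD, n = 2). On each array between 5.89% and 11.6% of all probe sets had a lower signal, and the gene did not pass the filter. Without a filter its log2 change was 0.33 ± 0.68 (SE, limma adjusted p = 0.913). Leaving out wild type replicate 2 turned it to -0.31, and leaving out wild type replicate 1 gave 0.97. Among the 1508 probe sets of like level, replicates differed by a median of 0.89 log2 units in wild type and 0.84 in nlp7-1. At this level a difference between genotypes was hard to detect.

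The neighbours can be set side by side within each array. The log2 ratio of AT1G70880 to AT1G70870 was 4.88 and 6.59 in wild type, against 3.56 and 3.65 in nlp7-1. The signals of AT1G70870 under this ratio lie far below the filter, and the lower ratio in both mutant samples was set by the decrease for which AT1G70880 was chosen. It is no measure of how the neighbours differ. Probes bind with unequal strength, so the ratios say nothing of which of the genes has more transcript. The probe sequences were not used here, and signal from related MLP transcripts on either probe set cannot be told apart from that of the gene it names.

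Among the genes around the cluster, the nearest kept gene on one side was lower in nlp7-1 and the nearest on the other side did not pass the test. AT1G70810, separated from the cluster by 1 annotated gene, had signals of 360 and 403 in wild type, against 196 and 182 in nlp7-1. The genotypes did not overlap. It fell 2.02-fold, a log2 change of -1.01 ± 0.13 (SE, limma adjusted p = 0.0216 over all kept probe sets). With nlp7-1 replicate 1 or 2 left out it no longer passed, with log2 changes of -1.07 and -0.96. In those fits far fewer of all kept probe sets passed as well. With wild type replicate 1 or 2 left out, its log2 change was -1.10 and -0.93. The gene in between, AT1G70820, had signals of 5.77 and 24.0 in wild type, against 27.1 and 3.86 in nlp7-1, below the filter and overlapping.

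On the far side the closest kept gene was AT1G70900, which lies beyond CLE17, a gene for a CLE signalling peptide. CLE17 had no named probe set. The signal of AT1G70900 was 163 and 138 in wild type, against 170 and 167 in nlp7-1. Both mutant values were above both wild-type values by a narrow margin, as in 23.2% of kept probe sets. The log2 change was 0.17 ± 0.14 and did not pass (SE, limma adjusted p = 0.677). The log2 ratio of AT1G70880 to AT1G70900 was 1.08 and 1.75 in wild type, against -0.91 and -0.18 in nlp7-1, a difference of -1.96. Against AT1G70810 the ratio was -0.064 and 0.20 in wild type, against -1.12 and -0.30 in nlp7-1, a difference of -0.78. Both differences hold the decrease that chose AT1G70880 and have no test.

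Of the 10 kept genes on each side, 1 was called lower and 0 higher in limma. Over all kept probe sets 0.63% were called lower and 1.64% higher. At an unadjusted p under 0.05 there were 3 of 20, and 13.2% over all. The median log2 change of the 20 genes was -0.038, beside 0.00016 over all kept probe sets. Before the cluster the median was -0.21, with 7 of 10 genes below 0, and after it 0.11, with 4 of 10 below 0. AT1G70780, further out on the same side as AT1G70810, had signals of 1770 and 1708 in wild type, against 1382 and 1144 in nlp7-1. Its log2 change of -0.47 ± 0.12 did not pass (SE, limma adjusted p = 0.159). AT1G70790, next but one to AT1G70810, had -0.29 ± 0.16 and did not pass either (limma adjusted p = 0.518). Both genes were named after their values were seen. The next kept genes outward, AT1G70770 and AT1G70740, had -0.12 ± 0.13 and 0.08 ± 0.25 (SE), each with overlap between genotypes. With AT1G70810 left aside, the other 19 genes ran from -0.52 to 0.27. The lowest of them was AT1G70500, also named after its values were seen, with 74.6 and 76.8 in wild type. Its nlp7-1 signals of 59.2 and 47.2 lay under the filter level of 59.4. The log2 change of -0.52 ± 0.20 did not pass (SE, limma adjusted p = 0.357).

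**Figure D2:**
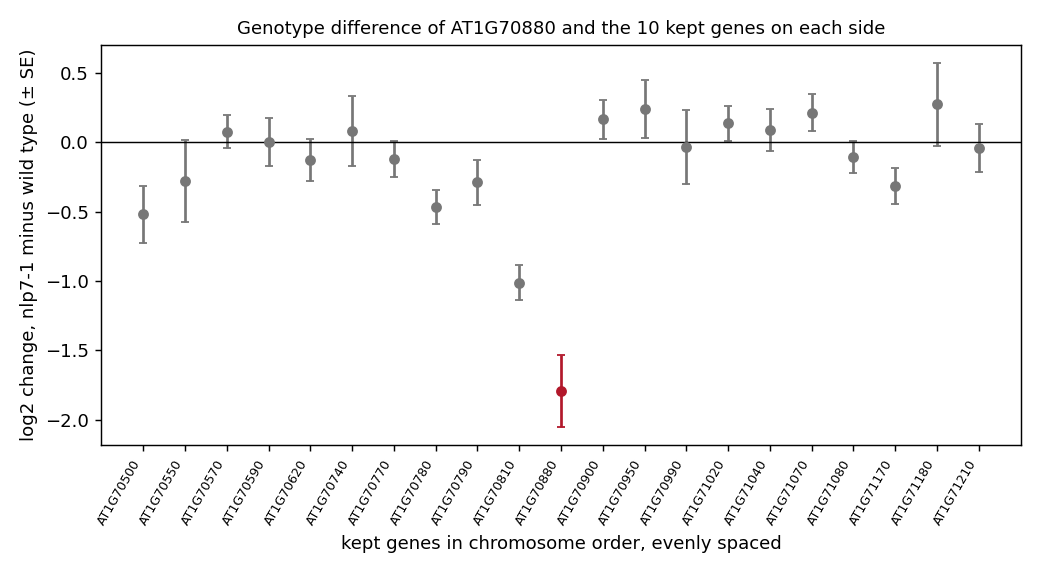
Log2 change, nlp7-1 minus wild type, with the standard error of the fit, for AT1G70880 (red) and the 10 kept genes on each side (grey), spaced evenly in chromosome order. AT1G70880 at -1.79 and AT1G70810 at -1.01 lie below the other genes, which run from -0.52 to 0.27. AT1G70880 was chosen for its decrease, so its low place follows from the choice.

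Outside the cluster, none of the MLP genes tested was called in either direction. The list holds 19 loci, taken as family members from general knowledge, of which the gene table itself gives an MLP name to 5. A named probe set was found for 13, and 8 passed the filter. In limma 0 of the 8 were called, where 2.27% of all kept probe sets were, and 3 had an unadjusted p under 0.05, a level that 13.2% of all kept probe sets reached. Of these 3, AT4G23680 was lower in nlp7-1, and AT1G30990 and AT1G23120 were higher. The log2 changes of the 8 ran from -0.50 to 0.91, with 3 below 0 and 5 above, and a median of 0.12. The median turned to -0.038 without wild type replicate 2 and was 0.25 without wild type replicate 1. The 5 that did not pass the filter were AT1G14930, AT1G14940, AT1G14950, AT1G23130 and AT5G28010, with signals of 1.64 to 37.9.

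**Figure D3:**
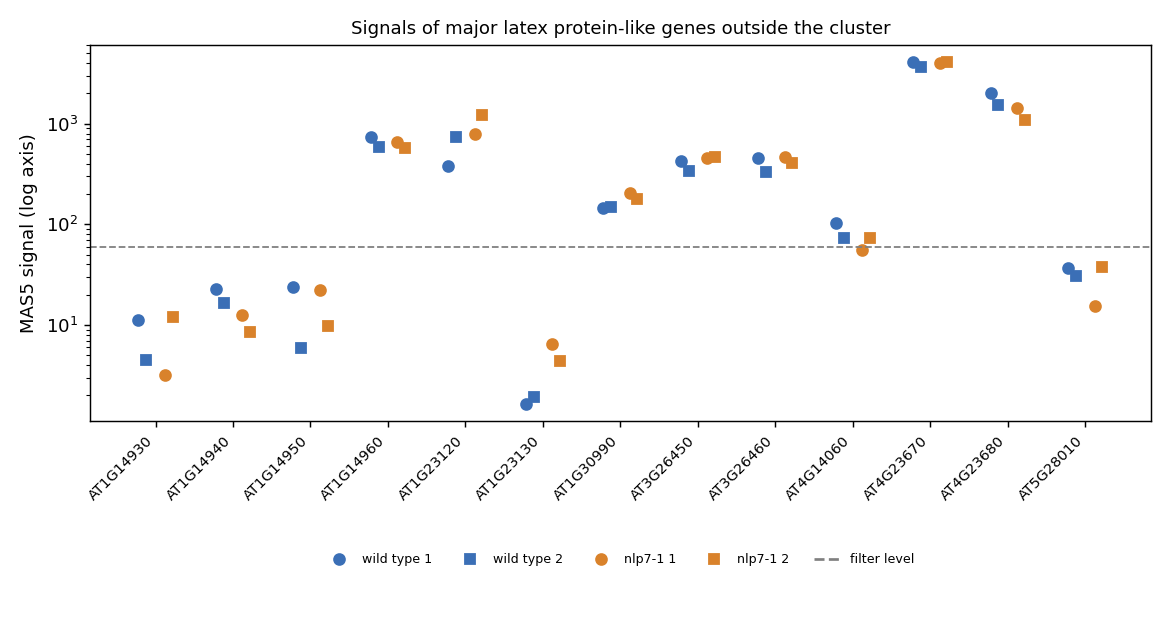
MAS5 signal (log axis) of 13 MLP genes outside the cluster, with a point for each of the 4 samples and the filter level of 59.4 as a dashed line. AT4G23670 lies highest, with points of 3680 to 4130 in both genotypes, and 5 genes lie wholly under the line.

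Several of these genes also stand next to each other, and their values are given side by side. AT4G23670 had signals of 4101 and 3680 in wild type, against 4028 and 4130 in nlp7-1, a log2 change of 0.07 ± 0.09 (SE). Its neighbour AT4G23680 had 2007 and 1545 in wild type, against 1430 and 1083 in nlp7-1, with no overlap. The log2 change of AT4G23680 was -0.50 ± 0.18 and did not pass (SE, limma adjusted p = 0.309). AT1G70880 was chosen for its decrease, so the size of these changes is not set against it.

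The neighbours AT3G26450 and AT3G26460 had log2 changes of 0.28 ± 0.14 and 0.16 ± 0.18 (SE). Signals of AT3G26450 were 428 and 342 in wild type, against 460 and 470 in nlp7-1. Those of AT3G26460 were 455 and 331 in wild type, against 466 and 404 in nlp7-1. Both genes were a little higher on average in the mutant, AT3G26450 without overlap, and neither passed (limma adjusted p = 0.474 and 0.769). In the row AT1G14930 to AT1G14960, AT1G14960 alone passed the filter, with signals of 733 and 588 in wild type, against 661 and 577 in nlp7-1. Its log2 change was -0.09 ± 0.15 (SE, limma adjusted p = 0.856), with overlap between genotypes.

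AT1G23120 had the highest log2 change of the 8, in the direction opposite to AT1G70880. Its signal was 381 and 731 in wild type, against 797 and 1233 in nlp7-1, so the genotypes did not overlap although the replicates stood far apart. The log2 change of 0.91 ± 0.33 did not pass (SE, limma adjusted p = 0.318). It lies between AT1G20910 and AT1G27530 on chromosome 1, a stretch whose 197 kept named probe sets had a median log2 change of 0.84. That stretch was picked as one raised in nlp7-1 in these same data, so its median follows from the choice. AT1G23130, the neighbour of AT1G23120, had signals of 1.64 and 1.94 in wild type, against 6.48 and 4.38 in nlp7-1, too low to pass the filter. Without AT1G23120 the family median was 0.070.

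Among the other genes, AT1G30990 had 147 and 151 in wild type, against 207 and 179 in nlp7-1, without overlap. Its log2 change was 0.37 ± 0.14 and did not pass (SE, limma adjusted p = 0.315). AT4G14060 had 103 and 72.9 in wild type, against 55.7 and 73.6 in nlp7-1, with overlap and a log2 change of -0.43 ± 0.24 (SE, limma adjusted p = 0.525). The 14 PYR/PYL receptors had 0 named probe sets and are not analysed here.

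The genes whose 4 values ran closest to those of AT1G70880 were found by the Euclidean distance between log2 values centred on each gene's mean, over 4 samples and 7370 other named probe sets. OSM34, which encodes an osmotin, was closest at a distance of 0.40 log2 units, with signals of 1764 and 2856 in wild type, against 378 and 718 in nlp7-1. APS4, which encodes an ATP sulfurylase of sulfate assimilation, followed at 0.40, with 1065 and 1386 in wild type, against 353 and 603 in nlp7-1. Replicate 2 was the higher one in each genotype in both genes, as in AT1G70880, a likeness that the distance itself selects for.

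AT3G09405, AT2G23270 and AT4G12500 came next, at 0.44, 0.48 and 0.53. Their signals were 131 and 175, 114 and 178, and 373 and 345 in wild type. In nlp7-1 they were 46.7 and 50.9, 38.6 and 40.8, and 62.2 and 104. The mutant signals of AT3G09405 and AT2G23270 thus lay under the filter level of 59.4, and both genes passed the filter through their wild-type signals. The log2 changes of the 5 genes ran from -2.16 to -1.40. With 4 arrays a distance of this kind mostly ranks genes by the same genotype difference that chose AT1G70880. It also favours genes with the same order of replicates, so the values describe likeness on these arrays only.

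**Figure D4:**
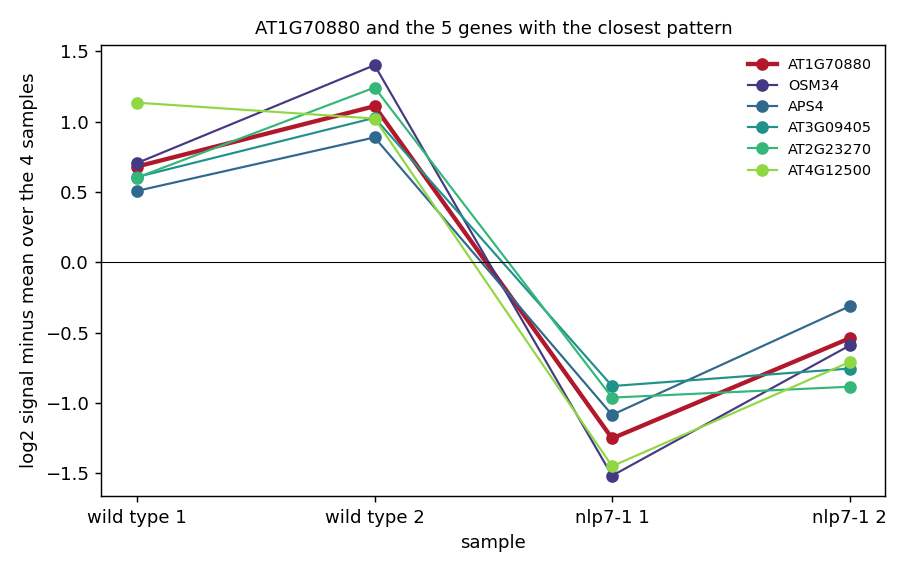
Log2 signal minus its mean over the 4 samples, for AT1G70880 (red) and the 5 named genes closest to it, with lines joining the points of a gene. All 6 are above 0 in both wild-type samples and below 0 in both mutant samples. In 4 of the 5 other genes wild type replicate 2 is above replicate 1, and in 5 of 5 nlp7-1 replicate 2 is above replicate 1. The 5 genes were picked by these same values, so their likeness follows from the choice.

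The summed signal of markers of green tissue, which a cut at the hypocotyl could carry along, was lower in both mutant samples. Of 13 such markers, 3 had a named probe set. Their summed signal was 813 and 1009 in wild type, against 664 and 793 in nlp7-1, without overlap. Singly, 20.9% of all kept probe sets were lower in nlp7-1 without overlap. LHCB4.1, a light-harvesting protein gene, had 336 and 479 in wild type, against 224 and 296 in nlp7-1, a log2 change of -0.64 ± 0.21 that did not pass (SE, limma adjusted p = 0.265). LHCB4.2 had -0.39 ± 0.25 and RCA, which encodes Rubisco activase, -0.02 ± 0.11, and neither passed (limma adjusted p = 0.581 and 0.970). Both LHCB4.2 and RCA overlapped between genotypes, so of the 3 markers LHCB4.1 alone did not. All 3 markers were kept by the filter at 59.4, so their signals did not lie at the bottom of the array. By themselves these signals do not show whether green tissue was present. The part of such tissue, and of the 25S rRNA difference, in the lower signals of AT1G70880 and AT1G70810 was not tested.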

How the data were processed

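The arrays hold root RNA of 2 wild-type and 2 nlp7-1 samples. Per the submitters' processing notes the authors deposited MAS5 intensities, 1 for each probe set on a linear scale. No source used here states the MAS5 version. The trimmed mean was 250.02 on all 4 arrays. No detection calls were used.

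Of 22746 probe sets besides 64 controls, 13513 name 1 gene in GEO's platform annotation, 503 several and 8730 none. Gene identifiers placed 13436 in RefSeq's gene table for TAIR10.1. The files name no build, so this table served for names and gene order only. Among loci matching the family rule, 5 matched through a clone name and were left out.

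Signals were taken to log2 with no pseudocount. Probe sets with a mean log2 at or above the 40th percentile (59.4) were kept. The genotype contrast was fitted in R 4.3.3 by limma 3.58.1 (lmFit, eBayes with trend), two-sided, with Benjamini-Hochberg adjustment over the 13648 kept probe sets and a threshold of 0.05. The fit was tested on data simulated from its own variance prior with independent samples. That setting holds no deviations shared by same-numbered samples, so it checks the code only. Summaries used Python 3.11.15.

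All members were named whatever their values, with the nearest kept gene on each side, measured MLP genes and the 5 closest patterns. AT1G70820, AT1G70790, AT1G70780, AT1G70770, AT1G70740 and AT1G70500 were named after their values were seen. Members and lists were chosen with earlier results of these data known. Protein and promoter sequences were not used here. Alternatives were other filters, pseudocounts of 32 and 100, quantile normalization, median centring, variance priors, the replicate block and each sample left out.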

Additional observations from a re-analysis of the deposited data

How the results depend on the processing

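The number of probe sets called was 310. It was 116 with no trend in the variance prior, and 105 when the genes from AT1G20910 to AT1G27530 were left out, an alternative chosen after the data were seen. With a replicate block it was 1290. Sample numbers are shared only as numbers, and the deviations of same-numbered samples from their group means correlated at 0.44. With a sample left out, counts lay between 14 and 770, where the spread comes from the 1 genotype that keeps 2 samples. Leaving out nlp7-1 replicate 1 gave 14, nlp7-1 replicate 2 gave 35 and wild type replicate 1 gave 770.

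The log2 change of AT1G70880 lay between -2.15 and -1.44 with single samples dropped and was -1.20 with a pseudocount of 100, which shrinks low signals by construction. The difference in log2 change between it and AT1G70870 was -1.22 with that pseudocount and -2.98 to -1.27 with a sample left out. It rests on signals far below the filter and on the decrease that chose AT1G70880, so its range says nothing about stability. AT1G70870 had -0.31 to 0.97 with a sample left out. The flanking median lay between -0.11 and 0.010 with single samples dropped and was 0.027 without a filter, which brings in other genes. The median of the wider MLP family lay between -0.038 and 0.25 when single samples were dropped. AT1G70810 kept its call and sign in 12 of 14 alternatives and lost the call when either nlp7-1 sample was left out, as given above. Protein and promoter comparisons and the PYR/PYL list gave no values.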
